A study of Mus musculus with 2 samples.

Results

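The peaks described here were all ATAC-seq peaks of the mouse femur that lay inside Chsy1 or had their nearest edge within 200 kb of it. ATAC-seq marks open chromatin by letting a transposase (Tn5) insert sequencing adapters into accessible DNA. There were 9 such peaks among the 28257 of the proximal list and 13 among the 27958 of the distal list. Merging peaks that overlapped by at least 1 bp gave 13 regions, of 32388 over both lists. Cells labelled as chondrocytes came from the femurs of FVBNJ mouse embryos at E15.5, with no treatment and no genetic change. A sample held the growth plate and other cartilage of 1 femur end, proximal or distal, from all embryos of a litter (a mean of 8). By the paper's account this tissue included the perichondrium over the growth plate, and which cells gave each peak was not resolved. For each end the authors combined 2 biological replicates, at 50000 cells per library, into a single list that gives where each peak lies but not its height, and the depth behind a single peak was not used here. The values below therefore have no replicate error, no test was possible, and a peak missing from 1 list does not show that the chromatin was closed at that end.

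Cartilage gets much of its stiffness under pressure from aggrecan, a core protein loaded with long, sulfated chondroitin chains. Chsy1 encodes a chondroitin synthase, which lengthens these chains by adding glucuronic acid and N-acetylgalactosamine in turn, and loss of the human gene causes short stature with malformed digits. Regulatory DNA of such a gene can lie at its start, in its introns or far outside it, often inside another gene.

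In the GENCODE annotation, Chsy1 (ENSMUSG00000032640.10) occupied chr7:66109515-66173798 of the mm10 genome on the plus strand, which is 64.3 kb with 3 exons, a first intron of 15 kb and a second intron of 45.1 kb. With 200 kb on each side the window measured 464.3 kb. Peaks were called at both ends of the femur at the Chsy1 start and in its first intron. A further peak, in the second intron, was called at the distal end only.

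The sequences of the start and of the second intron are shown because they are the promoter and the only part of the gene body called at a single end. Upstream of the start given by RefSeq, 250 bases at chr7:66109242-66109491 (GRCm38.p6, plus strand) lay wholly inside the peaks of both ends. Capitals mark GC boxes (GGGCGG, on either strand) and a CCAAT box (CCAAT), which are common promoter motifs.
Chsy1 upstream: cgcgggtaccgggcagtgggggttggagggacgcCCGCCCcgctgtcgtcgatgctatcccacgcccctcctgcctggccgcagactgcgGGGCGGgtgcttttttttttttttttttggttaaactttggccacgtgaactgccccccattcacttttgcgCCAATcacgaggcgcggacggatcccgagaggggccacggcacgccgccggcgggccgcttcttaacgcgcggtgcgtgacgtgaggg
The stretch held 2 GC boxes and 1 CCAAT box. Of 32851 RefSeq start sequences, 32.7% had a GC box and 33.8% a CCAAT box in their 250 upstream bases, so both motifs were common elsewhere. The distal-only peak of the second intron is shown over 300 of its 306 bases, at chr7:66147248-66147547 (GRCm38, plus strand). Capitals mark a RUNX match (TGTGGT, here on the minus strand) at chr7:66147280-66147285 and an AP-1 match (TGAGTCA, also on the minus strand) at chr7:66147424-66147430.
Chsy1 intron 2: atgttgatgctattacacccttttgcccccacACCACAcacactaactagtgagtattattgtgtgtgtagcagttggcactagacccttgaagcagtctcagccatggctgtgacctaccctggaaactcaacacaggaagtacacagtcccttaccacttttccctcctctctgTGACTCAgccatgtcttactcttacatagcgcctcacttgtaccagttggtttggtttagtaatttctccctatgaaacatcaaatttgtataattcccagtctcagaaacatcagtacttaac
The AP-1 match lay within the central 200 bp of the peak and the RUNX match outside them. AP-1 and RUNX proteins are transcription factors that act in skeletal cells, and a match of letters is no measurement of their binding.

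**Figure D1:**
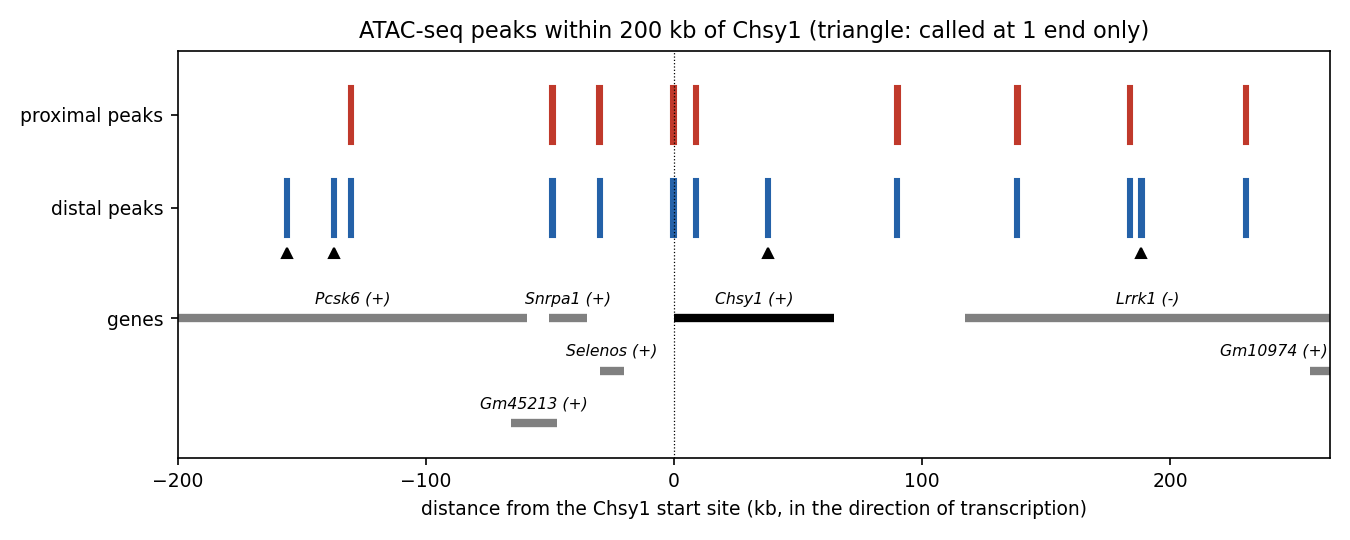
The horizontal axis gives the distance from the Chsy1 start in kb. Red and blue bars are proximal and distal peaks, drawn wider than they are so that they can be seen, lines below are protein-coding genes with their strand, and triangles mark the 4 peaks called at 1 end only, all of them distal.

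Taking the Chsy1 gene first, the start was covered at both ends. The proximal peak at chr7:66108995-66109663 was 669 bp wide and lay entirely inside the distal peak at chr7:66108935-66109696, which was 762 bp wide. The distal peak thus began 60 bp earlier and ended 33 bp later. The overlap made up 87.8% of their merged region. Over all shared regions the median overlap was 88.7% (quartiles 79.7% to 94.2%), so the start region of Chsy1 was close to the middle of the lists.

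In the first intron, a proximal peak at chr7:66118046-66118692 (647 bp) and a distal peak at chr7:66118010-66118591 (582 bp) shared 546 bp, or 79.9% of their region. This region was centred 8.8 kb downstream of the start, 7782 bp past exon 1 and 6549 bp before exon 2. The antisense transcript Gm26827 runs through the same intron on the other strand. ATAC-seq carries no strand, and the peak cannot be assigned to either gene.

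The peak of the second intron, at chr7:66147245-66147550, stood 37.9 kb downstream of the start, 21507 bp past exon 2 and 23281 bp before exon 3. Gm26827 runs through this intron too, and this peak cannot be assigned to either gene. The second intron peak was called at the distal end only. At 306 bp it was narrow: 1.99% of all distal peaks and 5.56% of the distal-only peaks were narrower. The median distal-only peak measured 497 bp. The height of this peak could not be compared between the ends.

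Upstream of Chsy1 lay 5 regions. Selenos, which encodes a selenoprotein of the endoplasmic reticulum, starts 29.9 kb upstream. Its start was covered by a proximal peak at chr7:66078969-66080034 and by a distal peak at chr7:66079179-66080169, which also reached the start of the noncoding Gm45081. These peaks were offset, with the distal one beginning 210 bp and ending 135 bp further downstream, and shared 71.3% of their region.

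Snrpa1, which encodes a spliceosome component, had a shared region at chr7:66060051-66060910, 49 kb upstream of Chsy1, with an overlap of 94.4% between a proximal peak of 860 bp and a distal peak of 812 bp at chr7:66060097-66060908. It covered the start of another Snrpa1 transcript and lay 1048 bp (proximal) and 1094 bp (distal) from the start of the gene model. The region also lay in an intron of the predicted gene Gm45213.

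The remaining 3 upstream regions were in introns of Pcsk6, a proprotein convertase that processes secreted growth factors. A shared region at chr7:65978832-65979832 was centred 130.2 kb upstream of the Chsy1 start with an overlap of 92.5%. Its proximal peak was 1001 bp wide and its distal peak, at chr7:65978881-65979806, 926 bp. Distal-only peaks stood at chr7:65972172-65972778 (607 bp) and chr7:65953178-65953624 (447 bp), 137 and 156.1 kb upstream. The latter was 166 bp from the start of a Pcsk6 transcript. Between the shared Pcsk6 region and that of Snrpa1 no peak of either end was called over 80218 bp, the widest gap among the 13 regions.

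Downstream of Chsy1 lay 5 regions. A shared region at chr7:66199154-66199792, 90 kb from the start, was the only one outside every gene and away from a gene start. The other 4 were in introns of Lrrk1, which encodes a kinase known for its role in osteoclasts and whose own start lies outside the window. Of these, the regions at chr7:66247546-66248195, chr7:66292927-66293573 and chr7:66339634-66340321 were shared, at 138.4, 183.7 and 230.5 kb. The fourth was a distal-only peak at chr7:66297427-66298355, at 188.4 kb. At 929 bp it was wide for its kind, with 95.5% of distal-only peaks narrower, and it lay 3853 bp from the shared region before it.

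Among the shared regions of the window, the ends matched least at 90 kb and 138.4 kb. There the proximal and distal peaks shared 59.5% and 56.2% of the region, and 4.43% and 3.03% of all shared regions had less. In both, the distal peak was the wider of the pair (565 against 454 bp, and 562 against 453 bp) and began further upstream, by 185 and 197 bp. The 230.5 kb region matched most closely, at 96.8%, with peaks of 680 bp (proximal) and 674 bp (distal). At 183.7 kb the overlap was 85.9%, with peaks of 634 bp (proximal) and 569 bp (distal).

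By width, proximal members ran from 453 to 1066 bp with a median of 669 bp, against 711 bp over the proximal list. Distal members ran from 306 to 991 bp with a median of 607 bp, against 691 bp over the distal list. In all, proximal peaks covered 6464 bp of the window and distal peaks 8732 bp.

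**Figure D2:**
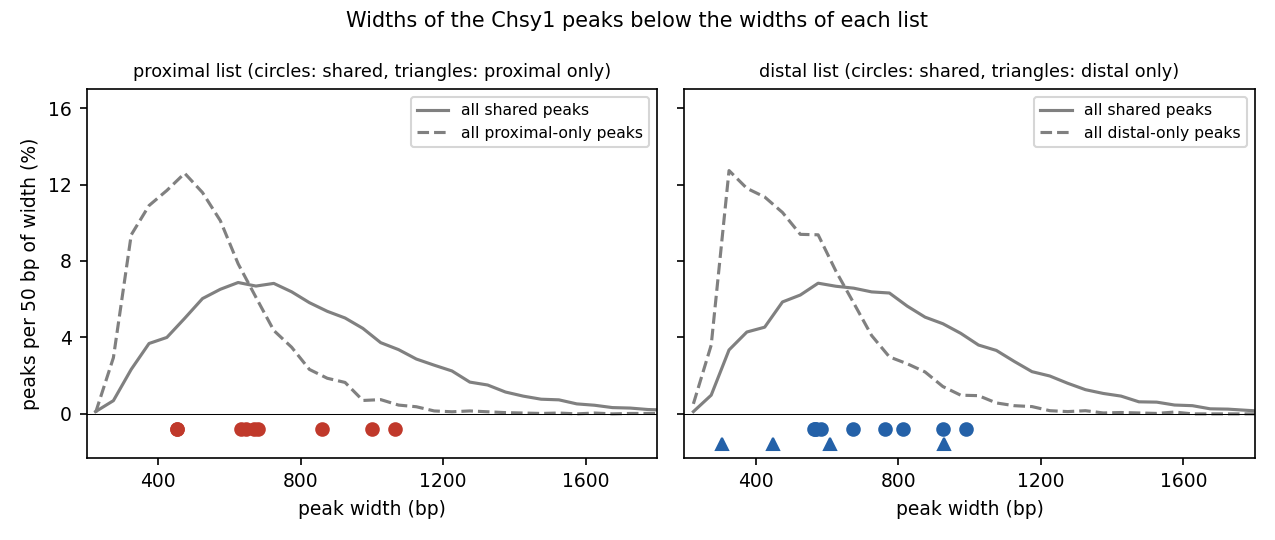
Each panel gives peak width in bp against the share of peaks per 50 bp of width, with lines for all shared and all single-end peaks of that list. Circles (shared) and triangles (distal only) under the axis are the members, and the distal-only triangles run from 306 to 929 bp.

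Counted by end, 9 of the 13 regions (69.2%) were shared, against 73% of all merged regions. The proximal end alone had 0 regions here, against 14.1% of all regions, and the distal end alone had 4 (30.8%), against 12.9%. Each count is small and has no error, and 44.7% of protein-coding genes also had 0 proximal-only regions within 200 kb. That share is over genes with any number of regions, including genes with none, so it is not a matched comparison. All 9 shared pairs also passed a reciprocal overlap of 50%.

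Compared with 20807 protein-coding genes on the autosomes, 13 regions within 200 kb was above the median of 9 (quartiles 6 to 13), with 74.1% of genes having fewer and 20.7% more. Neighbouring genes share regions, and this place among genes is a description. The 3 regions in contact with the gene body exceeded the median of 1 over 3033 genes within 1.5 times its length, of which 86.6% had fewer and 5.18% had more. A distal-only region in the body was found in 13.2% of those genes. Chosen after its values were seen, the combination of at least 4 distal-only and 0 proximal-only regions held for 379 genes (1.82%), and its mirror image, at least 4 proximal-only and 0 distal-only, for 124 genes (0.596%).

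Gene starts in the window differed in whether they had a peak. Peaks of both ends lay within 1 kb of the start for 2 of the 5 protein-coding genes that start there, Chsy1 and Selenos, against 50.9% of all protein-coding genes. No peak was called within 1 kb of the starts of Snrpa1, Gm45213 and Gm10974, the last being predicted genes.

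The same count was made for the other enzymes that build chondroitin sulfate. The chain starts on a linker of sugars attached to the core protein, is then polymerised, and is finally sulfated or epimerised. Of the 20 autosomal genes of this pathway, 17 had start peaks of both ends, beside the 50.9% over all protein-coding genes. They included 6 of 6 polymerisation genes (Chsy1, Chsy3, Chpf, Chpf2, Csgalnact1 and Csgalnact2), 5 of 6 linker genes and 6 of 8 modifying genes. No peak was near the gene starts of B4galt7, a galactosyltransferase of the linker, or of the sulfotransferases Chst13 and Chst15, although Chst15 had peaks of both ends at the start of another transcript.

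The 19 other pathway genes had between 3 and 32 regions within 200 kb, with a median of 12, and Chsy1 with 13 was within that range. Csgalnact1, which adds the first N-acetylgalactosamine of the chain, had 18, while Chsy3, a second chondroitin synthase, had 4. B3gat3, which completes the linker, had 32. More distal-only than proximal-only regions surrounded 9 of these genes, 7 had more proximal-only, and 3 had as many of each. At least 4 distal-only regions were present around 2 of them, Chst3 with 6 and B3galt6 with 4, as around 4.54% of all protein-coding genes. Chst3, a chondroitin sulfotransferase, also had 2 proximal-only regions and B3galt6 1, while Chsy1 had 0. Having 0 proximal-only regions was not particular to Chsy1, since 6 of the 19 other pathway genes also had 0.

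**Figure D3:**
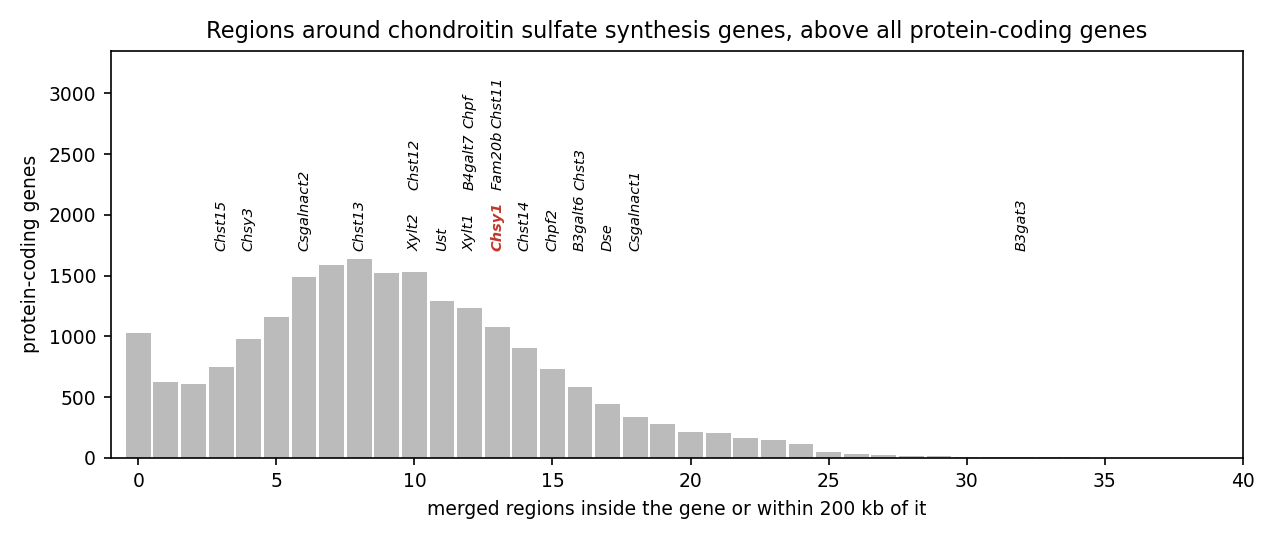
Bars count protein-coding genes by the number of merged regions inside them or within 200 kb. Names stand above the count of each chondroitin sulfate gene (heights of the names carry no value), with Chsy1 in red at 13, between Chsy3 at 4 and B3gat3 at 32.

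As a check of the labelled cell type, starts of 4 of 6 chondrocyte genes (Sox9, Col2a1, Acan and Col9a1) had peaks of both ends, against 50.9% of all protein-coding genes, so this count says little about the cell type. Comp had a distal peak only and Matn1 had none. Of 12 marker genes of muscle, endothelium, osteoblasts, neurons and epithelium, 2 (Snap25 and Epcam) had start peaks, both of them at both ends. The part of such cells in the Chsy1 peaks was not tested.

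In base composition the start region of Chsy1 stood apart from its introns. It was 69.2% G and C, above 96.8% of all regions, and its CpG ratio (CpG observed over that expected from its C and G content) was 0.993, above 98.8%. The regions at Snrpa1 and Selenos followed with ratios of 0.802 and 0.767. Every other region had a ratio of 0.399 or less, with a median of 0.352 over all regions. The second intron peak was lowest in GC content at 43.8%, and its CpG ratio was 0.0741.

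**Figure D4:**
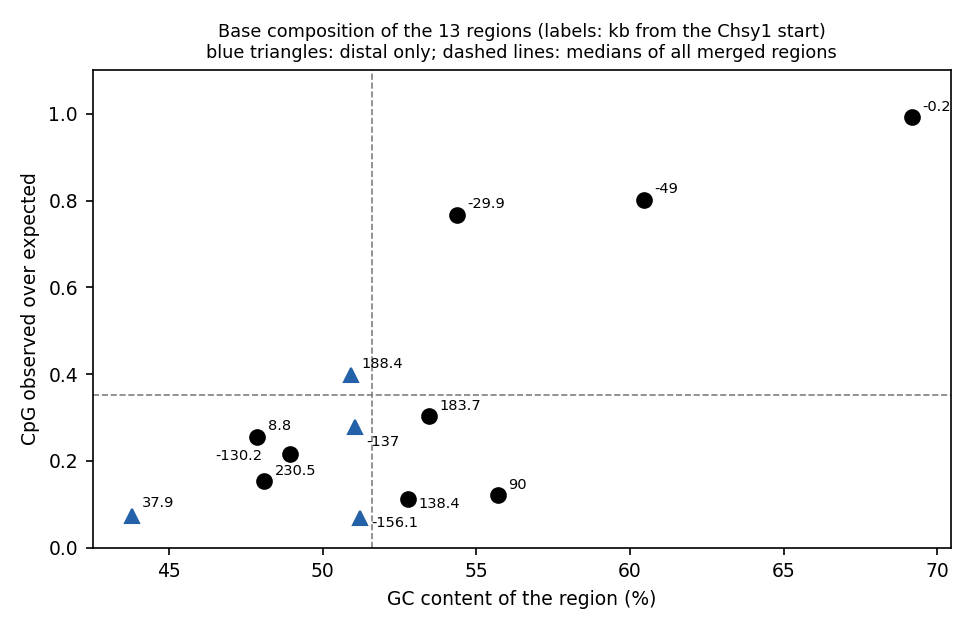
GC content in % is plotted against the CpG ratio for the 13 regions, each labelled with its distance in kb from the Chsy1 start. The start region is at the top right (69.2%, 0.993), and the second intron peak is the triangle at the far left (43.8%, 0.0741).

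Motif letters were counted on both strands of the central 200 bp of each region. AP-1 (TGAGTCA) occurred in 5 of 13, against 19.9% of all regions, and CCAAT in 8, against 22.5%. Over whole regions CCAAT was again in 8 of 13, but then against 57.8% of all regions. ETS (CCGGAA) was found in 3 (9.12%), SOX (ACAAAG or ACAATG) in 2 (14.7%), GC boxes in 2 (25.8%) and RUNX in 1 (13.7%). None held the posterior HOX letters TTTATTG (1.99%) or the CTCF core (5.62%). The AP-1 regions were the second intron peak, the shared regions at 90, 138.4 and 183.7 kb, and the Pcsk6 peak nearest a transcript start, so 2 of the 5 were distal only.

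The study designed primers and single guide RNAs (sgRNAs) around a human CHSY1 element that holds a height-associated variant. By the paper's account, this variant overlapped a femur peak of the study once the peaks were converted to human coordinates. Which mouse peak that was has not been looked up here. Instead, these oligos, the primers and sgRNAs, were searched in the mouse window to see where in it they matched best. Differences were counted as edits, the substituted, inserted and deleted bases. The reverse cloning primer, of 24 bases, had a single best place in the whole window, with 3 edits, at chr7:66147542-66147564 on the edge of the second intron peak. Capitals in the mouse sequence mark substituted or extra bases, while human bases missing from the mouse leave no mark.
reverse cloning primer: ttgttttaaggaaaaagggttaag
mouse, minus strand: tAttttaaAgaaaaagggttaag
The guide sgRNA 4 is also shown, because its place in this peak spanned the AP-1 match, but at 5 edits in 20 bases its match there was poor.
sgRNA 4: ttgcatgaagtcagcagagg
mouse, minus strand: tGgctgagtcacagagAg

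When 7 oligos were placed together with their human spacing, primers of a pair facing each other, the lowest total was 40 edits in 144 bases, at the second intron peak, against 44 at the next best place. This placement is a candidate only. It rested on the reverse cloning primer: without it, or with the sgRNAs alone, the best places were tied and lay elsewhere in the window. Without that primer they were 17904 and 28329 bp from the nearest region, and with the sgRNAs alone 20699, 12788 and 10578 bp. Taken alone, 6 of the 7 placed oligos had a better match in another part of the window. The forward cloning primer, sgRNA 4, sgRNA 8 and the amplicon primer R did so at a single place each, with 2 or 3 edits, and sgRNA 1 and sgRNA 6 at 7 and 22 places, with 4 edits. sgRNA 6 and sgRNA 8, which overlap in human, were placed apart and in swapped order, at 7 edits each. The forward cloning primer was placed 7 bp outside the peak, with 7 edits, against 6 on the strand that the facing rule excluded. The scoring was settled after matches at this peak had been looked at, and 11 scorings were run in all. Of these, 7 put the best place in the second intron peak and 4 did not. The scorings share oligos, and all 7 included the reverse cloning primer. With primers facing each other, the lead over the next best place was narrower at other spacings. It was 47 against 48 edits with 10 bp of drift allowed, and 40 against 42 with 50 bp. From these oligos, the mouse sequence orthologous to the human element was not established, and the study's own conversion of the peaks to human coordinates was not used here.

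**Figure D5:**
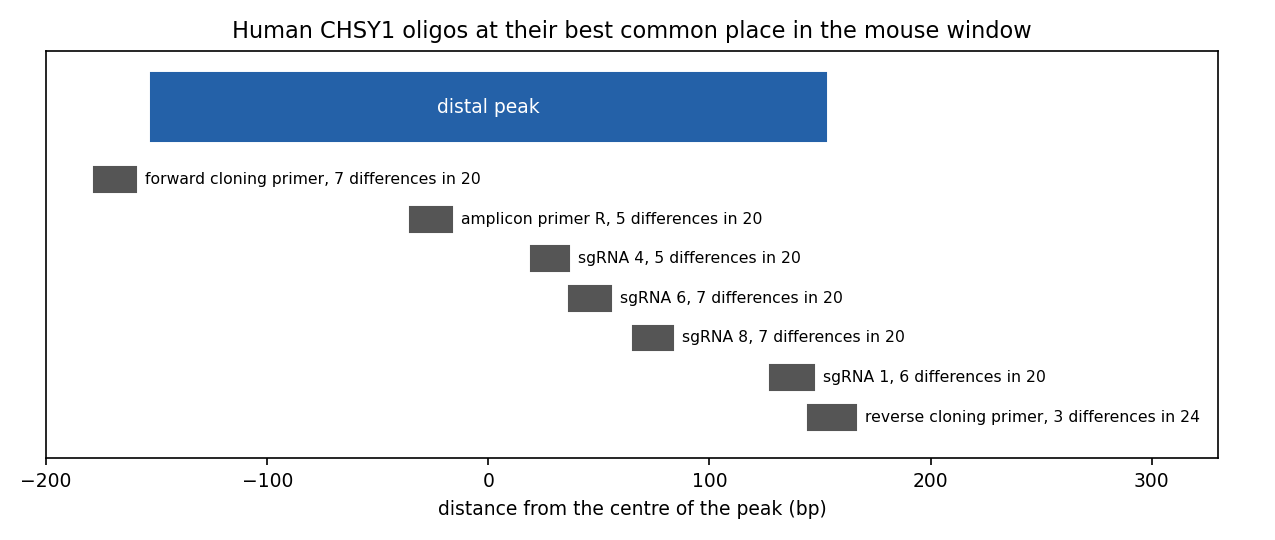
The second intron peak (blue) and the places of 7 human oligos (grey) are drawn by distance in bp from the peak centre, each with its number of differences from the mouse sequence. The reverse cloning primer, at 3 in 24, is the closest match, and the others range from 5 to 7 in 20.

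For comparison, primers for the exons of human CHSY1 were searched in the same way. Exon primer 1 R, of 21 bases, matched exactly and once, at chr7:66109421-66109441 inside the shared start region. This place was outside the annotated mouse exons, upstream of exon 1, which begins at chr7:66109515. Exon primers 3 F4 and 3 R3 matched uniquely within exon 3, with 1 and 2 edits. The other 7 of the 10 exon primers had best matches of 3 or 4 edits and none lay uniquely in an exon of Chsy1.

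At the borders of the window, the outermost regions were 155.9 kb upstream and 165.8 kb downstream of the gene. The nearest regions beyond it, both shared, were at chr7:65704745-65705279, 404.2 kb upstream, and at chr7:66388948-66389561, 215.2 kb downstream and 598 bp from the Lrrk1 start.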

How the data were processed

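The deposited files held 1 list of peak positions per femur end, with no score or height. Per the labels and methods, the authors used Bowtie2 (2.2.8) for alignment to mm10, removed duplicates, called peaks with MACS2 (2.1.1 in the submitters' processing notes, while the methods name another release) and kept peaks at an irreproducible discovery rate under 0.05 between 2 biological replicates. Read counts and single replicates were not used here.

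Starts, taken as counted from 0, were written counted from 1. Members lay inside Chsy1 or within 200 kb of it (GENCODE mouse release 21). Peaks overlapping by 1 bp were merged. Start peaks lay within 1 kb. Motifs were exact letters on both strands of GRCm38. Oligos were aligned by edit distance (edlib 1.3.9), allowing 25 bp of drift in spacing. Of 8 oligos, amplicon primer F was left out because its listed interval did not have its length. Upstream sequence came from RefSeq. Merging, motif search and oligo placement were tested on simulated data. The simulated placement did not use the rule that primers face each other and had no inserted or deleted bases. It also used random letters over a shorter stretch than the window, with fewer changes per base than the placement at the second intron peak. The simulation therefore cannot show that this placement is right. Python 3.11.15 and NumPy 2.4.6 were used.

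All members were named, with the protein-coding genes of the window and a textbook list of the pathway. Members and lists were chosen with earlier results of these data known. With 1 list per end, no test was run. Alternatives changed the window, peak width, overlap, start distance, motif window and oligo scoring. The oligo scoring and its alternatives were chosen after seeing the data. Results for 1 list of marker genes are not reported here.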

Additional observations from a re-analysis of the deposited data

How the results depend on the processing

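Within 100 kb of Chsy1 there were 6 proximal and 7 distal peaks in 7 regions, of which 6 were shared, 0 proximal only and 1 distal only, so 3 of the 4 distal-only regions lay further away. Within 500 kb there were 17 proximal and 21 distal peaks in 22 regions, 16 shared, 1 proximal only and 5 distal only. When peaks narrower than their list's median width were dropped, 3 proximal and 5 distal peaks were left in 5 regions, 3 shared, 0 proximal only and 2 distal only, with 1 region in the gene body. That region was the Chsy1 start, then distal only because its proximal peak was dropped, and the second intron peak was lost. A reciprocal overlap of 50% changed no count. The share of genes with fewer regions than Chsy1 ran from 58% to 74.1% over the windows. Start sites with a peak were 3 within 3 kb, or over any transcript.

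The oligo placement was less stable. With sgRNAs only, the best places were tied, at 20699, 12788 and 10578 bp from the nearest region. Without the reverse cloning primer they were also tied, at 17904 and 28329 bp. Primers were first scored on either strand; the rule that a pair faces each other was set after those results were known. On either strand, the best place was 14328 bp from the nearest region at a spacing tolerance of 10 bp. There the second intron peak tied with another place for second, with 46 edits against 45. Still on either strand, but without the reverse cloning primer, the best place was 12732 bp from the nearest region. In the other 7 scorings it lay in the second intron peak.

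Over whole regions in place of their central 200 bp, AP-1 occurred in 9 of 13 (33.4% of all regions), CCAAT in 8 (57.8%), SOX in 7 (48.7%), GC boxes in 5 (43.1%), RUNX in 3 (38.5%) and posterior HOX in 1 (8.49%). No replicate could be left out, since each end had 1 list. No paired analysis was possible because each end had 1 list and no result came from a test. Without heights or depth, narrow peaks called at 1 end could not be told from peaks just missed at the other.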
